A study of Mus musculus with 12 samples.

Results

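The genes described here are 10 members of the NF-κB pathway in the mouse: Rel, Rela, Relb, Nfkb1, Nfkb2, Ikbkb, Nfkbia, Nfkbiz, Tnfaip3 and Tnf. A peak was taken as theirs when its assigned gene name was one of the 10, or when the gene on which it had been called was one of them. They held 15 of the 27292 m6A peaks listed for OVA lung and 13 of the 26102 listed for PBS lung. All 10 have a gene identifier, and 9 had at least 1 peak in each list.

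N6-methyladenosine (m6A) was mapped by MeRIP-seq in lung tissue of female BALB/c mice aged 6 to 8 weeks, with 3 mice in each group. Mice of the OVA group were sensitized by intraperitoneal ovalbumin with an aluminum hydroxide adjuvant on days 0 and 7, then exposed to a 3% ovalbumin aerosol for 30 min a day from day 14 to day 20. PBS mice were given PBS alone at both steps, so the groups differ in adjuvant as well as in allergen, and lungs were taken on day 21 after a methacholine provocation test. An antibody against m6A captured the fragments of the 6 IP libraries, and the 6 input libraries held the fragmented RNA without this capture. Each group has 1 peak list, in which single mice have no values, so no spread between mice can be given and no difference between the groups was tested.

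For each peak the lists give a fold enrichment, which divides IP by input within the peak, and the log10 of its p value. Values given for OVA lung and PBS lung are those of each group's list. Each list came from its own comparison of IP with input, with no scaling across the lists stated. Values of both lists are therefore set side by side as a description. Each peak called on a member is described with the percentile of its fold enrichment among all peaks of its own list. A high percentile is a strong peak by fold enrichment, which can go with a weak p. Where a percentile of p is given, the lowest p values are at the top. Neither list gives read counts, so the depth behind a peak is unknown. Whole lung is a mixture of cells, in which fewer cells of a type and less RNA per cell cannot be told apart. Of 49 marker genes of lung cell types, 35 had a peak in OVA lung and 33 in PBS lung, among them 7 of 8 alveolar epithelial and 5 of 5 endothelial markers in both. A gene can be expressed without a peak, and the surfactant gene Sftpc, a defining alveolar marker, had none in either list. Leukocyte markers had peaks as well: 5 of 7 lymphocyte markers in OVA lung against 4 in PBS lung, 5 of 8 against 6 for macrophages and neutrophils, and 3 of 8 against 2 for eosinophils and mast cells, where the granule genes Epx and Prg2 had none in either list. The part of cell composition in the values of the NF-κB genes was not tested.

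NF-κB is a family of transcription factors that are held in the cytoplasm by inhibitors of the IκB family. Receptors for TNF, interleukin-1 and microbial products activate an IκB kinase, the inhibitor is degraded, and the freed dimers enter the nucleus and switch on inflammatory genes, among them genes for their own inhibitors. In the airways the pathway is known for its activity in epithelial cells and leukocytes during allergic inflammation. m6A is laid down on adenosines of nascent RNA, most often near stop codons and in 3' UTRs, and is known to affect how long an RNA lasts and how it is translated.

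The presence of peaks was examined first. In each list 9 of the 10 genes had a peak, against 55.3% of all RefSeq protein-coding genes in OVA lung and 53.9% in PBS lung. These shares count every such gene, whether expressed in lung or not. Of the 15 OVA peaks, 2 had no overlapping PBS peak, while 19.4% of all OVA peaks had none. Of the 13 PBS peaks, 0 lacked an overlapping OVA peak, against 14.5% of all PBS peaks. Overlap means at least 1 bp shared between exonic blocks, the parts of a peak that lie on exons. With so few peaks, nothing is read from the gap between these counts and the shares of the whole lists.

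The peaks that overlapped and were called on the same gene formed 13 pairs. The OVA peak had the higher fold enrichment in 11 of them, or 84.6%, against 61.4% of the 21133 such pairs in the whole lists. By percentile within each list, 11 of the 13 again stood higher in OVA lung, against 57.5% of all pairs. An OVA fold enrichment of at least 2 times the PBS one was found for 2 of the 13 pairs and for 7.73% of all pairs, and the reverse for 0 of the 13 and 5.01% of all. The median ratio of OVA over PBS was 1.24 over the 13 pairs and 1.1 over all pairs. Only 11 of the 13 pairs were called on the member itself. Of those, 1 had an OVA value at least 2 times the PBS one, and 9 were higher in OVA lung. Pairs on one gene share their RNA and are not independent, and this count was chosen after the data were seen.

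**Figure D1:**
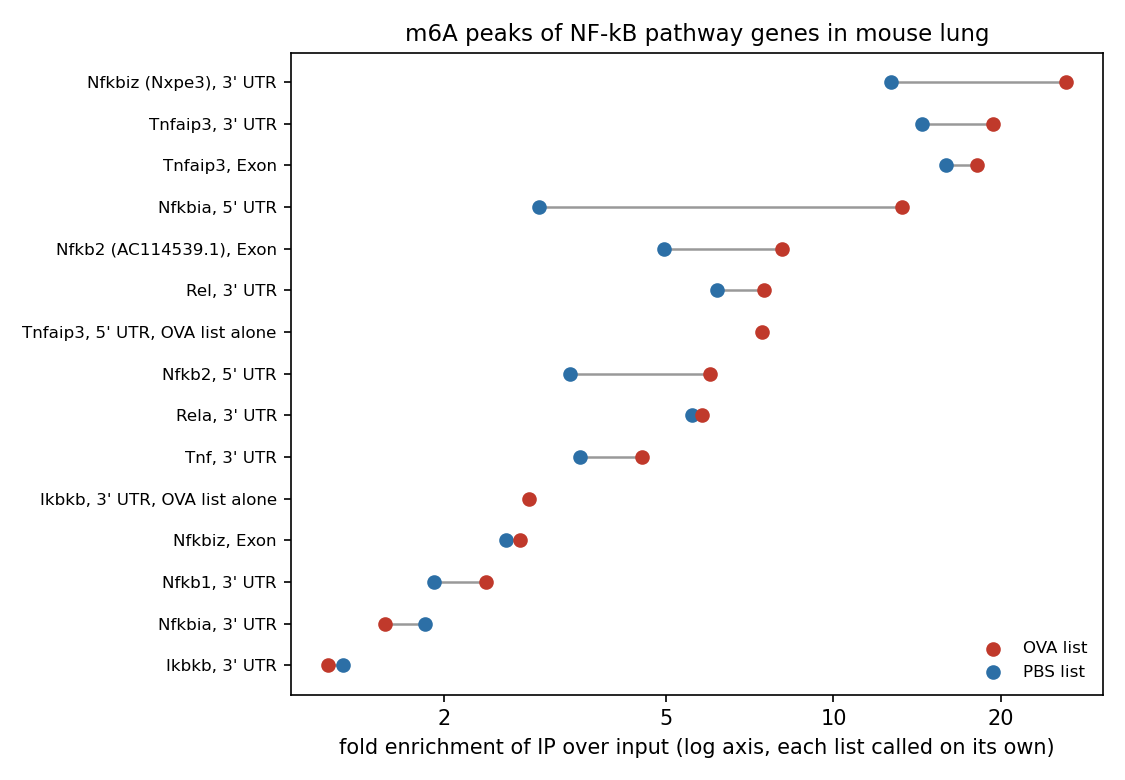
Fold enrichment of IP over input, on a log axis, for each m6A peak of the NF-κB genes, with OVA values in red, PBS values in blue and a line joining overlapping peaks. Gene names in parentheses are those on which a peak was called where this was not the member; the widest gap belongs to the 5' UTR peak of Nfkbia, at 13.3 in OVA lung and 2.96 in PBS lung.

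The median fold enrichment of the members' peaks was 6.01 in OVA lung, beside 5.59 for all OVA peaks, and 3.51 in PBS lung, beside 5.44 for all PBS peaks. The PBS value depends on 3 weak peaks, since with a fold enrichment of at least 2 it was 5.28. Under the same cut the OVA value was 7.44, while the medians of all peaks are given without a cut. The median percentile of the members' peaks was 52.6 in OVA lung and 33.2 in PBS lung. Peaks called on a member ran from 1.24 to 19.3 in OVA lung and from 1.32 to 15.9 in PBS lung, and a peak assigned to Nfkbiz but called on a neighbouring gene reached 26.1 in OVA lung. The members thus ranged from barely enriched peaks to peaks in the top part of each list.

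Rel, Rela and Relb encode the family members that carry a transactivation domain. Rel, which encodes the c-Rel subunit prominent in lymphocytes, had 1 peak in each list on chromosome 11. It lay at 23742242 to 23742993 in OVA lung, with a fold enrichment of 7.51 (percentile 60.2), and at 23742272 to 23742963 in PBS lung, with 6.17 (percentile 54.5). The PBS peak lay inside the OVA peak, 30 bp short of it at each edge, yet the annotation places the PBS peak in exon 10 of 10 and the OVA peak in the 3' UTR. The log10 p was -386 in OVA lung and -132 in PBS lung.

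Rela, which encodes the p65 subunit of the most common dimer, had a 3' UTR peak on chromosome 19 at 5647175 to 5647802 in OVA lung and at 5647205 to 5647832 in PBS lung. Its fold enrichment was 5.82 and 5.58, at percentiles 51.5 and 50.7, and its log10 p was -266 and -261, at percentiles of p of 85.6 and 86.4. By fold enrichment Rela thus stood near the middle of both lists. Relb, which encodes the partner of the noncanonical pathway, was the member without a peak. No peak of either list lay within its RefSeq bounds, 19606217 to 19629438 on chromosome 7. The nearest, called on Clptm1, stood 3962 bp away in both lists and had a fold enrichment of 5.36 in OVA lung and 6.51 in PBS lung. A gene without a peak may have no enriched RNA or too few reads, and the lists do not separate these.

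Nfkb1 and Nfkb2 encode precursor proteins that are processed into the DNA-binding partners of the Rel proteins. Nfkb1 had a single 3' UTR peak with the same coordinates in both lists, 135585253 to 135589334 on chromosome 3. Its span of 4082 bp crossed an intron, and its 2 exonic blocks summed to 272 bases. The fold enrichment was 2.38 in OVA lung (percentile 17.0) and 1.92 in PBS lung (percentile 9.26), while its p stood at percentiles 79.3 and 63.7. Nfkb1 was thus weakly enriched but well supported by p in both groups.

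Nfkb2 had 2 peaks in each list near its start on chromosome 19. The peak called on Nfkb2 itself lay in the 5' UTR, at 46304319 to 46305713 in OVA lung and at 46304349 to 46304859 in PBS lung. Its fold enrichment was 6.01 (percentile 52.6) and 3.37 (percentile 31.6), and its log10 p was -35.8 and -13. The OVA peak had an additional block, of 19 bases, which the PBS peak lacked. The other peak was called on AC114539.1, a gene model with its own identifier, and was only assigned to Nfkb2 by the annotation. It started at 46303889 in both lists and ended at 46305282 in OVA lung, with a fold enrichment of 8.07, and at 46305133 in PBS lung, with 4.97. Both Nfkb2 peaks shared 532 bases in OVA lung and 502 in PBS lung, so their higher OVA values are not independent. Both are nevertheless counted among the 13 pairs and among the 11 with the higher OVA value. The strand and bounds of AC114539.1 were not analysed here, so which of these genes the shared bases belong to is not known.

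Ikbkb encodes the kinase subunit that phosphorylates IκB proteins. A short 3' UTR peak of 92 bp, at 22660021 to 22660112 on chromosome 8, was identical in both lists and close to the bottom of each. Its fold enrichment was 1.24 in OVA lung (percentile 0.185) and 1.32 in PBS lung (percentile 0.584). A further 3' UTR peak, at 22660351 to 22660622, stood in the OVA list alone, with a fold enrichment of 2.84 (percentile 24.0) and a log10 p of -13.6. Between it and the end of the PBS peak lay 238 bp. The 3' UTR of Ikbkb thus held a pair of peaks in one group and a single one in the other.

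Nfkbia encodes IκBα, the inhibitor that is degraded on activation and then made anew under NF-κB control. Its 5' UTR peak, on chromosome 12, ended at 55492647 in both lists, which is the RefSeq start of this minus-strand gene, and began at 55492497 in OVA lung and at 55492467 in PBS lung. The fold enrichment was 13.3 in OVA lung, at percentile 80.6, and 2.96 in PBS lung, at percentile 26.4. The ratio of 4.49 stood at percentile 99.0 of all pairs. The p values ran the other way, with a log10 p of -7.6 in OVA lung (percentile 29.5) and -12.3 in PBS lung (percentile 40.7). The member peak with the widest gap in fold enrichment thus had the weaker p in the group where its enrichment was high.

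The 3' UTR peak of Nfkbia had its lower fold enrichment in OVA lung. It lay at 55489796 to 55490412 with 1.57 in OVA lung (percentile 3.24) and at 55489618 to 55489946 with 1.85 in PBS lung (percentile 8.02). They shared 151 bases, or 83.0% of the exonic bases of the OVA peak and 45.9% of those of the PBS peak. Its log10 p was -16.1 in OVA lung (percentile 43.4) and -11.6 in PBS lung (percentile 39.7). At each end of Nfkbia, the list with the higher fold enrichment thus had the weaker p.

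Nfkbiz encodes IκBζ, an atypical nuclear IκB protein that is induced by interleukin-1 and interleukin-17 and acts on a set of secondary response genes. The peak called on it, in exon 5 of 12, lay at 55817823 to 55818451 on chromosome 16 in OVA lung and reached 55818510 in PBS lung. Its fold enrichment was 2.74 (percentile 22.5) and 2.58 (percentile 20.8), and its log10 p was -50.3 and -51.4. These values were close in both groups.

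The strongest peak under the name Nfkbiz did not lie in Nfkbiz. It had been called on Nxpe3, the neighbouring gene, and lay at 55843394 to 55844712 in OVA lung and at 55843364 to 55849627 in PBS lung. RefSeq places Nfkbiz at 55811375 to 55838954 and Nxpe3 at 55839953 to 55897104 on GRCm38, so the OVA peak was 4440 bp outside the first and inside the second. Its fold enrichment was 26.1 in OVA lung (percentile 96.1) and 12.7 in PBS lung (percentile 80.8). This was the highest value of any peak assigned to a member in OVA lung, and it belongs to Nxpe3 by position. In the whole lists the called and the assigned gene differed for 22.5% of OVA peaks and 22.8% of PBS peaks.

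**Figure D2:**
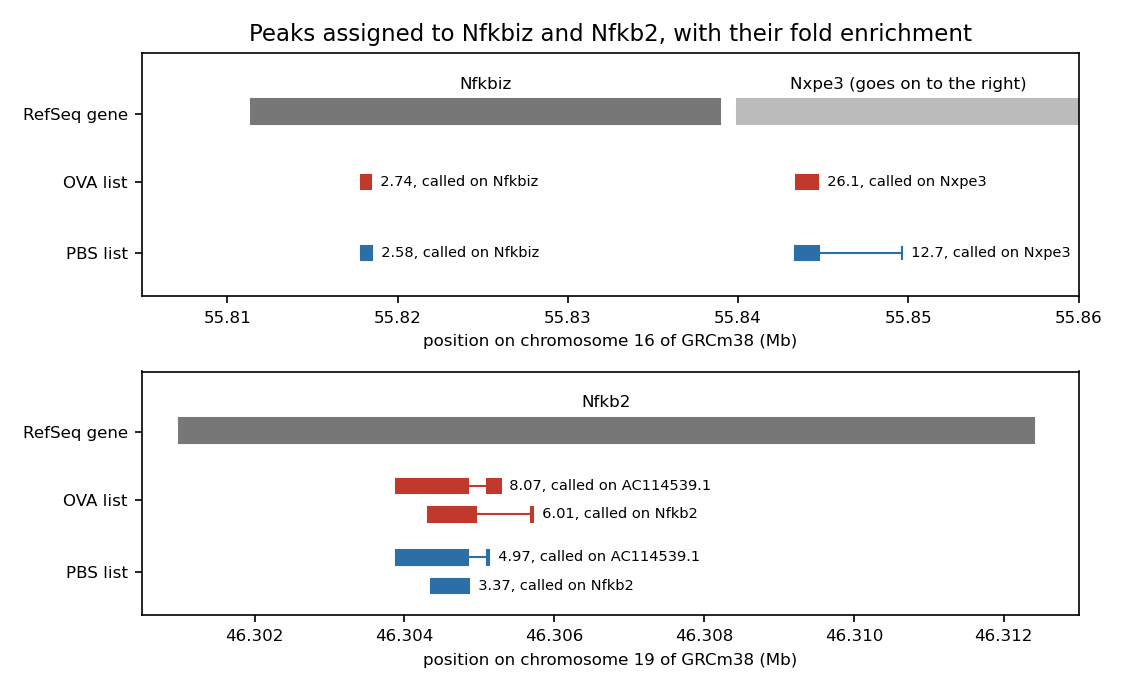
Peaks assigned to Nfkbiz and Nfkb2 on GRCm38, with exonic blocks as boxes, OVA in red, PBS in blue, RefSeq genes in grey and each fold enrichment printed beside its peak with the gene on which it was called. The peaks at 26.1 and 12.7 lie within Nxpe3, to the right of Nfkbiz, and both peaks at Nfkb2 overlap one another in each list.

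Tnfaip3 encodes A20, a ubiquitin-editing enzyme that is induced by NF-κB and shuts the pathway off. It held the strongest peaks called on any member in both lists. The peak at 19001748 to 19003898 on chromosome 10, in the 3' UTR, had identical coordinates in both lists and a fold enrichment of 19.3 in OVA lung (percentile 91.2) and 14.4 in PBS lung (percentile 85.3). The peak at 19004317 to 19005277, in exon 7 of 9, was also identical, with 18.1 (percentile 89.5) and 15.9 (percentile 88.0). Together these peaks covered long stretches of the RNA, 1592 and 961 exonic bases. Their log10 p was -1390 and -1000 in OVA lung and -474 and -338 in PBS lung. A p value depends on read numbers as well as on enrichment, and expression was not analysed here.

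A further Tnfaip3 peak, in the 5' UTR, stood in the OVA list alone. It lay at 19015249 to 19015370, with a fold enrichment of 7.44 (percentile 59.9) and a log10 p of -3.92 (percentile 14.6). Between it and the nearest PBS peak lay 9971 bp. By p this was the weakest of the 15 OVA peaks.

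Tnf, the cytokine that activates the pathway and is itself one of its targets, had a 3' UTR peak on chromosome 17. It ran from 35199827 to 35200364 in OVA lung and from 35200035 to 35200364 in PBS lung, so that the PBS peak was contained in the OVA peak. The fold enrichment was 4.53 (percentile 42.7) and 3.51 (percentile 33.2), and the log10 p was -26.2 and -12.3.

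When the members were ordered by the highest peak called on each, Tnfaip3 came first in both lists. Nfkbia followed in OVA lung, at 13.3, and stood at rank 6 in PBS lung, at 2.96. Rel, Rela, Tnf, Nfkbiz and Nfkb1 kept their order relative to each other. At the lower end Nfkb1 was last in OVA lung, at 2.38, and Ikbkb in PBS lung, at 1.32. Without values of single mice it is not known which neighbours in this order differ beyond their spread.

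By the authors' regions, 9 of the 15 OVA peaks lay in the 3' UTR, 3 in the 5' UTR and 3 in exons. Over all OVA peaks the shares were 52.7%, 11.6% and 35.7%. In the PBS list 7 of the 13 peaks lay in the 3' UTR, 2 in the 5' UTR and 4 in exons, where the shares over all PBS peaks were 52.7%, 11.4% and 35.9%. The transcript assigned to a peak was annotated as protein-coding for 8 of the 15 OVA peaks, or 53.3%, against 41.8% of all OVA peaks. The remaining ones were 5 on transcripts annotated as retained introns, among them all 3 of Tnfaip3, against 20.4% of all, and 2 on processed transcripts, against 14.4%. In the lists' own KEGG annotation, 7 members carried the NF-kappa B signaling pathway, a term of 65 genes in either list. Epstein-Barr virus infection, a term of 140 genes, was also carried by 7. The TNF and IL-17 signaling pathways, of 75 and 51 genes, were carried by 6 each, as was osteoclast differentiation, of 88. The members were chosen as NF-κB genes, so these counts follow in part from that choice.

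Sequence around the start was taken from RefSeq (GRCm38.p6) for 6 members, as 9 windows of 300 bases that run from 250 bases before a start to 50 bases after it and may overlap within a gene. The starts of Nfkb2, Nfkbia and Tnfaip3 are shown, since 5' UTR peaks lay at or near them. In the Nfkb2 window at 46304487 to 46304786 on chromosome 19, all 300 bases lay in the peak of both lists, and for Nfkbia the first 50 bases of the transcript did. For Tnfaip3, 10 of the first 50 bases lay in the OVA peak, which ended short of the start, and the PBS list had no peak there. The κB consensus, the binding motif of the NF-κB dimers, was searched on both strands. It was found in 6 of the 9 windows, from 4 of the 6 members, and in 4.51% of the 32851 windows of all genes. The Nfkb2 match at 46305705 to 46305714 was counted in each window that holds it. These windows are thus not independent, and the shares were not compared by a test. The match nearest the start is shown in capitals, on the strand of each gene, at chr19:46304718-46304743 (plus strand), chr12:55492659-55492684 (minus strand) and chr10:19015405-19015430 (minus strand).
Nfkb2: ggccgaaaGGGGCTTTCCcggctgga
Nfkbia: actggcttGGAAATTCCCcgcgcctg
Tnfaip3: tttccatcGGAAATCCCCctgttggc
All 3 matches lay before the start used for their window. The Nfkb2 match was inside the peaks of both lists, which reach upstream of that start, and those of Nfkbia and Tnfaip3 were outside the peaks. A match is a description of the letters and not evidence of binding. A sequence that m6A often sits in, GGAC followed by any base but G, was searched on the strand of the gene. It occurred in 8 of the 9 windows and in 60.2% of all windows. Of each window, 250 bases lie before its start and are not part of the RNA made from that start. Only Nfkb2, Rela and Tnf had a GGAC match after a start, at position 12, at 19, and at 21 and 31. The Nfkb2 match was counted in each window that holds it. The Nfkb2 window that lay wholly in the peaks had no GGAC match, but it covers 300 of the 643 bases of the main OVA block. The peaks outside the windows were not searched. Among these windows, the only GGAC match inside a peak was GGACT in the additional block of the OVA peak of Nfkb2, which the PBS peak did not reach. Its letters are also part of the κB match at 46305705 to 46305714, which runs past the end of that block. GGACT is shown with its flanks at chr19:46305698-46305718 on the plus strand, while the block itself ended at 46305713.
Nfkb2, GGACT with flanks: tattttcgGGACTttcctaag

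The wider pathway was taken as 88 other genes, from receptors to targets. Of these, 72 had a peak in OVA lung and 71 in PBS lung, 69 of them in both and 14 in neither. The shares over all protein-coding genes, expressed in lung or not, were 55.3% and 53.9%. The part of expression in this gap was not tested. Their 134 OVA peaks had a median fold enrichment of 7.56, and their 138 PBS peaks one of 6.75. In 68 of 117 overlapping pairs the OVA value was the higher, or 58.1%, against 61.4% of all pairs. By percentile within each list the OVA peak stood higher in 49.6% of the 117 pairs, against 57.5% of all, and its p was the lower in 80.3%, against 59.4% of all. The share by fold enrichment was near that of all pairs, and no difference between these shares was tested.

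By role, all 9 receptors had a peak in both lists, as did 7 of 8 ligands, 11 of 12 feedback and deubiquitinase genes and 3 of 5 inhibitors of the IκB family. Of 24 adaptors and ubiquitin ligases, 21 had a peak in OVA lung and 22 in PBS lung, and of 10 kinases 9 and 8 did. Card9 and Rbck1 were counted only through peaks called on their neighbours Snapc4 and Trib3. By called gene alone, 70 wider pathway genes had a peak in OVA lung and 69 in PBS lung. The median fold enrichments of the wider pathway were then 7.48 and 6.76. Of 20 target genes, 12 had a peak in OVA lung and 11 in PBS lung, near the shares of 55.3% and 53.9% over all protein-coding genes. The median fold enrichment of receptor peaks was 11.7 in OVA lung and 12.1 in PBS lung, and that of peaks on inhibitors of the IκB family was 5.56 and 5.43.

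Of the peaks of the wider pathway, 15 of 134 in OVA lung and 14 of 138 in PBS lung had no overlapping peak in the other list, where 19.4% and 14.5% of all peaks had none. Its genes with a peak in the OVA list alone were Ccl2, which encodes a chemokine for monocytes, Chuk, which encodes the other catalytic kinase subunit, and Nos2, the inducible nitric oxide synthase. Their fold enrichments were 4.4, 2.6 and 2.83. Those with a peak in the PBS list alone were Csf2, a growth factor for granulocytes and macrophages, at 3.7, and Malt1, a protease of lymphocyte receptor signaling, with 2 peaks at 2 and 1.82. The Csf2 peak was assigned to Gm12223 and called on Csf2. Each of these peaks was below the median of its list.

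The strongest OVA peaks of the wider pathway were on Tnfsf11, which encodes RANKL, at 196, on Rbck1, at 37.9, and on Tlr2, a receptor for bacterial lipoproteins, at 33.7. In the PBS list the overlapping peaks stood at 20.2, 30 and 22.7. For Tnfsf11 the log10 p was -78.7 in OVA lung and -5.97 in PBS lung. The Rbck1 peak had been called on Trib3 and was placed at -5906 bp relative to its assigned transcript start, so the name again is that of a neighbour. The strongest PBS peaks were on Tnfsf14, which encodes LIGHT, at 33.6, on Ltb, which encodes lymphotoxin β and whose peak was assigned to Mir6973a, at 31.6, and the Rbck1 peak at 30. The overlapping OVA peaks of Tnfsf14 and Ltb stood at 19.9 and 18.5. The Tnfsf14 pair had its lower p in OVA lung, with a log10 p of -56.6 against -17, and another Tnfsf14 pair had the higher fold enrichment there, 7.96 against 4.01. These peaks were picked for their strength in one list, so the order of their values between the lists is a description only.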

How the data were processed

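Reads of 6 IP and 6 input libraries were cleaned by the authors with FASTP, mapped with HISAT2 to the Ensembl mouse genome, and used to call peaks with exomePeak and annotate them with ChIPseeker. The deposited fold enrichment is a ratio of IP over input, and the deposited log10 p and FDR are scores of the caller. The way in which 3 replicates became 1 list is not given in the sources used here. From the lists, peaks of the 10 genes were selected by assigned name or called gene, compared by exonic blocks and paired within a called gene by their largest overlap. Overlap and pairing code was tested on simulated data. Coordinates are counted from 1; 97.7% of OVA peaks called on RefSeq protein-coding genes overlapped that gene on GRCm38. The genes named are all members with every peak, genes that a member's peak was called on or assigned to, wider pathway genes with a peak in 1 list only, and the 3 strongest wider pathway peaks of each list. Clptm1, Sftpc, Epx, Prg2, Card9 and Snapc4 were named after their values were seen. Members and gene lists were chosen with earlier results of these data known. Alternatives were an FDR under 0.05, a fold enrichment of at least 2, other gene assignments and other overlap rules. Python 3.11.15, numpy 2.4.6, pandas 2.3.3 and matplotlib 3.10.9 were used.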

Additional observations from a re-analysis of the deposited data

How the results depend on the processing

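Restricting the lists to peaks on protein-coding transcripts left 8 OVA and 7 PBS peaks of the members, with 7 OVA peaks overlapping a PBS peak and 7 PBS peaks overlapping an OVA peak, and 39 wider pathway genes with a peak in OVA lung and 39 in PBS lung. This follows from the removal of peaks on other transcripts. Identical start and end positions held for 4 OVA and 4 PBS peaks of the members. This was 30.8% of the members' pairs, against 13.2% of all pairs, and the difference was not tested. A fold enrichment of at least 2 raised the median of the PBS members' peaks to 5.28, since it removes the weakest peaks. With 1 value per gene, its highest peak, the medians of the wider pathway were 12.1 for OVA lung and 10.9 for PBS lung. The other values of the planned results moved by at most 1.5 times under the alternatives run. For the pairs with the higher OVA value, alternatives were chosen after seeing the data: 9 of 11 pairs when called on the member, and 3 of 4 with identical coordinates. A further one, without pairs under a fold enrichment of 2 in both lists, is not read, since it removes both pairs with the higher PBS value and keeps Nfkb1 through its OVA value alone. No paired analysis was possible because the lists hold 1 value per group and none for single mice. Leaving out each replicate was not possible for the same reason. The lists give no read counts, so what depth limits could not be measured.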
